A study of Sus scrofa with 189 samples.

Results

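Muscle samples rich or poor in fat cell RNA were compared among pigs whose measured fat lay in 1 middle range. The samples came from longissimus dorsi, a back muscle that runs along the spine. Intramuscular fat content (IMF) is recorded in the labels without a unit. Of 189 animals, 91 had an IMF from 2.5 to 4.0, a title without the mark re-analyzed and a library other than library 39. Both groups were chosen by a measured value, the summed level of the transcripts of ADIPOQ, the gene of adiponectin. The 23 animals with the highest level form the ADIPOQ-high group and the 23 with the lowest the ADIPOQ-low group, 46 of the 189 animals in all. The 45 animals between them were left out of the comparison.

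White fat cells store fatty acids as triglyceride in a single large droplet. In muscle they lie between the fibre bundles as marbling, fed by capillaries and held in a collagen mesh, while the fibres keep only small droplets of their own. Adiponectin is a hormone that fat cells secrete and muscle fibres do not make in quantity. Its RNA is used here as a measure of fat cell RNA in a muscle sample, whereas IMF is a content of fat and not a count of cells.

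All animals of both groups were first-generation crosses of Duroc boars and Luchuan sows, a Chinese breed. They had the same farm, diet and abattoir, carried no treatment or named allele, and were slaughtered at 210 ± 6 days of age per the labels. The labels give the number of sows as 112 in one place and 158 in another, and no sex, sire or dam of an animal. Polyadenylated RNA was sequenced, and the unit of the deposited levels was inferred to be FPKM, a fragment count divided by transcript length and library size.

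ADIPOQ ran from 33.7 to 71.9 FPKM in the ADIPOQ-high group, with a median of 35.2, and from 3.61 to 15.3 FPKM in the ADIPOQ-low group, with a median of 11.9. These values chose the groups and are given as a description. The first animal outside the high group had 33.0 FPKM and the first outside the low group 15.5 FPKM, so that neither edge lies at a gap in the levels. ADIPOQ lies on chromosome 13 of Sscrofa11.1, from 124633684 to 124648055 on the plus strand, and 3 transcripts of it are listed. ENSSSCT00000038265 held most of the sum, with a median of 29.0 FPKM in the ADIPOQ-high group and 7.65 FPKM in the ADIPOQ-low group.

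IMF, which the ranking did not use inside the window, averaged 3.35 ± 0.415 in the ADIPOQ-high group and 3.12 ± 0.428 in the ADIPOQ-low group (SD, n = 23 each). The difference of 0.226 (SE 0.124) did not pass a 2-sided permutation test with 100000 resamples (p = 0.0787), but the difference did pass with groups of 30 animals each (0.217, p = 0.0353) and with PLIN1 in place of ADIPOQ as the ranking gene (0.379, p = 0.00262). Animals of the ADIPOQ-high group had an IMF from 2.53 to 3.97 and those of the ADIPOQ-low group one from 2.50 to 3.81, so that both groups spanned nearly the whole window. This does not show that IMF was the same in both. Over all 91 animals, log2(ADIPOQ + 1) and IMF had a Pearson r of 0.225 (permutation p = 0.0314) and a Spearman rho of 0.209 (permutation p = 0.0469). The r was 0.218 without the 2 animals farthest from the median, and its square corresponds to 5.05% of the variance. Within the window, then, an animal's IMF said little about its ADIPOQ level.

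**Figure D1:**
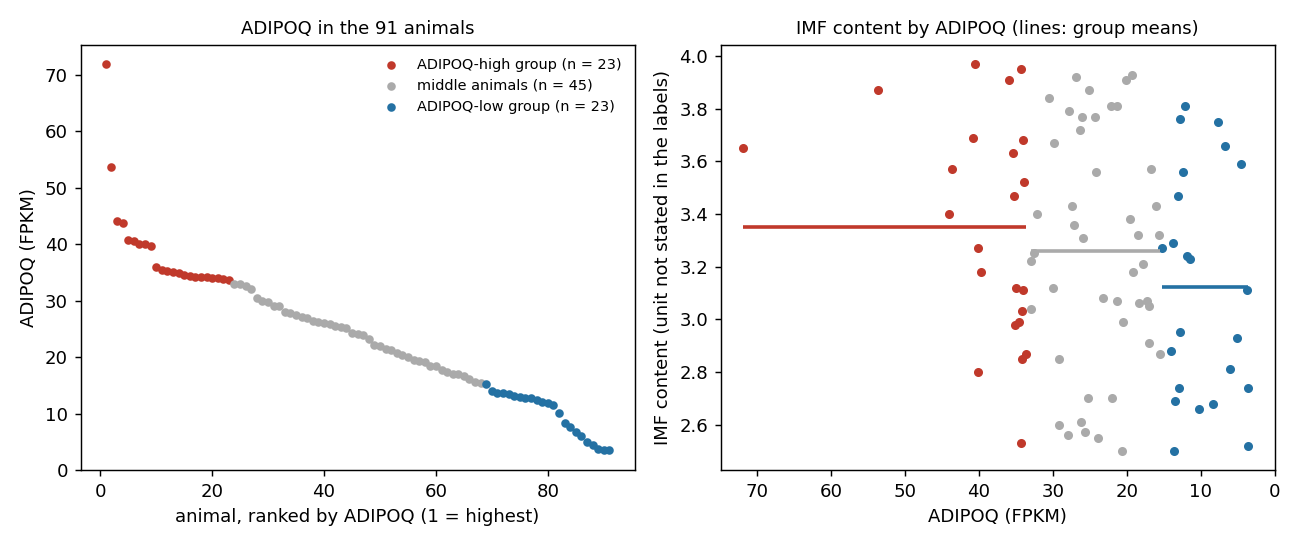
Left, ADIPOQ level (FPKM) of the 91 animals in order of rank, each point 1 animal, coloured by group. Right, the IMF label of each animal against its ADIPOQ level (axis running high to low), with horizontal lines at the mean IMF of the ADIPOQ-high (3.35), middle (3.26) and ADIPOQ-low (3.12) animals; each group spreads over most of the window.

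Summary values of the libraries were close in both groups, and read depth is unknown because no counts were used here. The summed FPKM ran from 399775 to 458316 in the ADIPOQ-high and from 397182 to 450371 in the ADIPOQ-low group. The 10 most abundant genes held 34.9 ± 4.56% of it in the ADIPOQ-high and 33.7 ± 4.61% in the ADIPOQ-low group (SD, n = 23 each), and mitochondrially encoded genes 6.70 ± 1.65% in the ADIPOQ-high and 7.35 ± 2.21% in the ADIPOQ-low group. In the ADIPOQ-high group 9164 ± 462 genes reached 1 FPKM, against 8936 ± 481 in the ADIPOQ-low group. The titles hold a number code that the labels do not explain. Its first 2 digits take 1 of 2 values, the smaller in 7 and the larger in 16 animals of each group, and whether they stand for a year or a batch is not stated. Its first 9 digits took 21 values in the ADIPOQ-high and 19 in the ADIPOQ-low group, 4 of them in both. Library 39, which was left out, stood at 605 FPKM of ADIPOQ, and with it kept 1687 genes were higher and 250 lower in the comparison that follows. Genes of fast muscle fibres, markers of the labelled tissue, summed to at least 41000 FPKM in each of the 46 animals.

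A total of 1451 genes were higher and 273 lower in the ADIPOQ-high group, of 10716 tested with limma on log2(FPKM + 1) at a Benjamini-Hochberg adjusted p under 0.05. These are 13.5% and 2.55% of the genes tested, the background for each list below. Most differences were small: 31 of the genes called were higher by at least 1 log2 unit and 3 were lower by that much, and the median over all genes was 0.04. No gene, whether called or not, had ranges that did not overlap between the groups (0 of 10716, 0%), although the groups were cut apart on ADIPOQ itself. For PLIN1 and TUSC5, described below, the overlap rests on 1 ADIPOQ-low animal, library 122. Its median correlation with the other libraries was 0.909, the lowest of the 91 animals and equal to that of library 39. Genes called higher made up 84.2% of the calls, but 60.3% after quantile normalization (811 higher, 534 lower) and 52.8% after shifting each library to 1 median (727 higher, 649 lower). With the groups taken by PLIN1 at the main scaling the share was 48% (1840 higher, 1996 lower), and 41 of the called genes changed sign, with 0 called in the opposite direction. The split between directions thus moved with the scaling and with the ranking gene. With IMF as a covariate 1228 genes were higher and 241 lower, and 1437 of the 1724 calls stood. In an IMF window of 2.8 to 3.7, with 14 animals per group, 606 genes were higher and 13 lower, and 43 of the calls on genes named here ended. Of the 1724 genes 1714 had the same sign among animals of either value of the first 2 title digits. IMF itself, as a slope over the 91 animals, called 0 genes with limma (smallest adjusted p = 0.248), with 183 at an unadjusted p under 0.05. The choice of animals held IMF to 2.5 to 4.0, so this slope had only that narrow range. The ADIPOQ groups were instead the extremes of their ranking, and the counts of calls are not comparable.

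Fat cell genes other than ADIPOQ rose together. Of 20 listed adipocyte markers 14 were tested, of which 12 were higher and 0 lower in the ADIPOQ-high group (11 and 0 under either other scaling). Their median difference was 0.79 log2 units, beside 0.04 for all genes. All of them were measured in the libraries that also gave the ADIPOQ level, and in bulk tissue more fat cells and more RNA per fat cell cannot be told apart.

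PLIN1, which coats the large droplet of fat cells, had 24.3, 32.7 and 73.6 FPKM as the lowest, median and highest value of the ADIPOQ-high group, against 4.91, 10.1 and 27.0 FPKM in the ADIPOQ-low group. The difference was 1.66 on the log2(FPKM + 1) scale (SE 0.141, adjusted p = 1.05e-11). In the ADIPOQ-high group 20 of 23 animals lay above every ADIPOQ-low animal. The overlap came from library 122 alone, as the next highest ADIPOQ-low value was 18.5 FPKM. PLIN1 lies on chromosome 7 from 55237349 to 55251510 on the minus strand. Had PLIN1 ranked the animals, 16 of 23 would have been in the same high group and 16 of 23 in the same low group, with 0 in opposite groups.

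TUSC5, which serves insulin-driven glucose transport in fat cells, ran from 6.40 to 32.7 FPKM in the ADIPOQ-high group (median 10.8) and from 0.983 to 6.92 FPKM in the ADIPOQ-low group (median 3.09). Its difference was 1.58 (SE 0.150, adjusted p = 1.85e-10), and 22 of 23 ADIPOQ-high animals lay above all ADIPOQ-low animals. As for PLIN1, the overlap came from library 122 alone, with a next highest ADIPOQ-low value of 6.26 FPKM. These counts therefore do not rank TUSC5 above PLIN1. FABP4, the fatty acid carrier of fat cells, ran from 66.4 to 185 FPKM (median 90.9) in the ADIPOQ-high group and from 10.8 to 86.2 FPKM (median 33.3) in the ADIPOQ-low group, a difference of 1.51 (SE 0.158, adjusted p = 2.04e-09). The droplet fusion protein CIDEC rose by 1.58 (SE 0.179, adjusted p = 1.52e-08), its relative CIDEA by 1.24 (SE 0.162, adjusted p = 4.34e-07) and THRSP, a nuclear protein of lipid synthesis, by 1.56 (SE 0.222, adjusted p = 2.56e-06). Ranges of all 4 of FABP4, CIDEC, CIDEA and THRSP overlapped between the groups.

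Fat cell genes of low level moved the same way. LEP, the gene of the satiety hormone leptin, had a median of 0.678 FPKM in the ADIPOQ-high and 0.228 FPKM in the ADIPOQ-low group, and rose by 0.43 (SE 0.0704, adjusted p = 2.3e-05). ADIG, a small protein of fat cells first known from mouse, had medians of 1.85 and 0.361 FPKM in the ADIPOQ-high and ADIPOQ-low groups (0.92, SE 0.160, adjusted p = 5.5e-05) and was listed at 0 in 5 ADIPOQ-low animals. PPARG, the master regulator of fat cell differentiation, rose by 0.67 (SE 0.122, adjusted p = 1.13e-04). Its partner CEBPA rose by 0.62 (SE 0.189, adjusted p = 0.0188), a call that ends with IMF as a covariate (adjusted p = 0.0621). SNCG, a synuclein, rose by 0.32, and the membrane protein TMEM120B by 0.26. The TMEM120B call ends under both other scalings (adjusted p = 0.137 with quantile normalization and 0.116 with the median shift).

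The most abundant markers on the list were the ones that did not pass. CFD, the complement protease adipsin, had medians of 121 FPKM in the ADIPOQ-high and 91.4 FPKM in the ADIPOQ-low group, a difference of 0.23 (SE 0.150, adjusted p = 0.322). GPD1, which makes glycerol phosphate and is also a gene of muscle fibres, had medians of 267 FPKM in the ADIPOQ-high and 304 FPKM in the ADIPOQ-low group, a difference of -0.14 (SE 0.0987, adjusted p = 0.376). The ranges of both genes overlapped almost fully. With the groups taken by PLIN1 in place of ADIPOQ, CFD was higher (0.66, adjusted p = 3.38e-04).

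**Figure D2:**
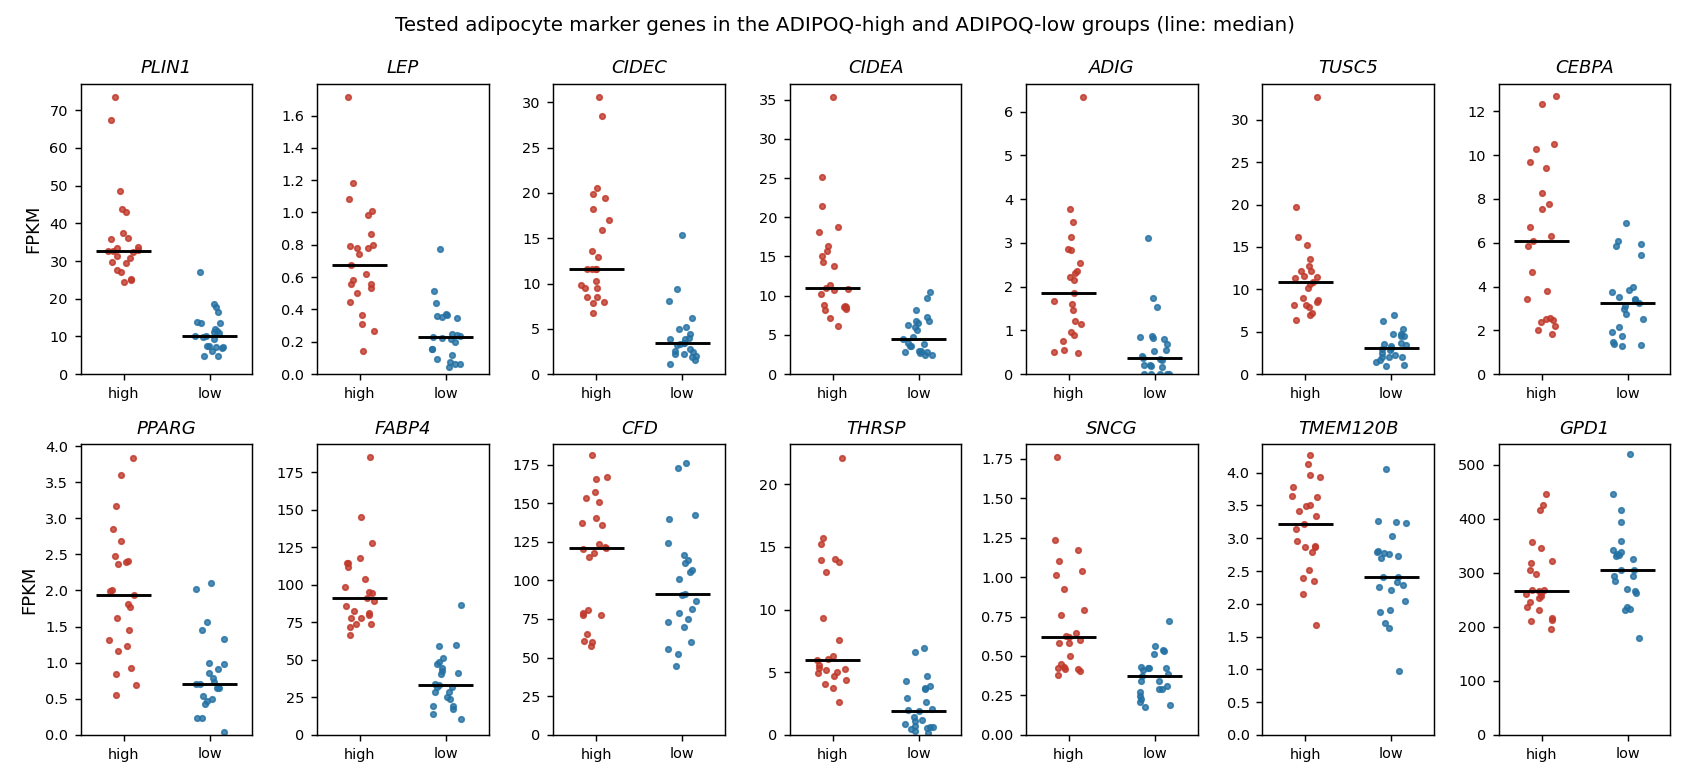
FPKM of the 14 tested adipocyte markers in the 23 ADIPOQ-high (left) and 23 ADIPOQ-low (right) animals, each point 1 animal (spread sideways at random), with a line at the median. PLIN1 and TUSC5 nearly separate the groups, with 20 and 22 of 23 ADIPOQ-high animals above every ADIPOQ-low animal, whereas CFD and GPD1 do not. The highest ADIPOQ-low point of PLIN1 and of TUSC5 is library 122.

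The enzymes that build fatty acids from acetyl-CoA were mostly higher. Of 16 tested, 10 were higher and 1 lower (8 and 1 with quantile normalization, 7 and 1 with the median shift), with a median of 0.43. ELOVL5, which lengthens polyunsaturated fatty acids, had a median of 6.96 FPKM in the ADIPOQ-high group (4.74 to 13.8) and 2.98 FPKM in the ADIPOQ-low group (0.00253 to 5.78). It rose by 1.20 (SE 0.143, adjusted p = 6.13e-08), and 18 of 23 ADIPOQ-high animals lay above all ADIPOQ-low ones. ELOVL6, which lengthens saturated ones and is named after its values were seen, rose by 1.05 (SE 0.159, adjusted p = 6.53e-06).

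FASN and SCD, the synthase and the desaturase that are textbook markers of fat synthesis, varied far more inside each group than PLIN1 did. FASN ran from 6.12 to 172 FPKM (median 36.5) in the ADIPOQ-high group and from 3.96 to 112 FPKM (median 10.2) in the ADIPOQ-low group, a difference of 1.14 (SE 0.384, adjusted p = 0.034). SCD ran from 0.918 to 77.5 FPKM (median 10.0) in the ADIPOQ-high group and from 0.397 to 20.0 FPKM (median 2.76) in the ADIPOQ-low group, a difference of 1.24 (SE 0.376, adjusted p = 0.0181). Within the ADIPOQ-high and ADIPOQ-low groups the SD was 1.41 and 1.31 log2 units for FASN and 1.40 and 1.26 for SCD, but 0.399 and 0.564 for PLIN1. An animal of the ADIPOQ-high group could thus hold less FASN than the median ADIPOQ-low animal. The FASN call ends with IMF as a covariate (1.08, adjusted p = 0.0635), with ADIPOQ ranked after removing its trend on IMF (1.00, adjusted p = 0.0561), with groups of 18 animals (1.04, adjusted p = 0.0893) and under the median shift (1.07, adjusted p = 0.0601). The SCD call ends with ADIPOQ ranked after IMF (0.98, adjusted p = 0.0632). The FASN call also ends without any 1 of 6 libraries, the ADIPOQ-high libraries 30, 92, 12 and 183 and the ADIPOQ-low libraries 179 and 79 (adjusted p of up to 0.0569). Both calls end in an IMF window of 2.8 to 3.7, which leaves 14 animals per group (1.09, adjusted p = 0.213 for FASN and 0.95, adjusted p = 0.332 for SCD).

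Other enzymes of the pathway rose by less. ACLY, which makes cytosolic acetyl-CoA, rose by 0.54 (SE 0.123, adjusted p = 0.00158). PGD and IDH1, which supply reducing power, rose by 0.50 and 0.42, and the desaturases FADS2 and FADS1 by 0.46 and 0.31. ACACA, the carboxylase that commits acetyl-CoA to the pathway, had medians of 2.76 and 1.19 FPKM in the ADIPOQ-high and ADIPOQ-low groups and did not pass (0.44, adjusted p = 0.172). The 1 gene that was lower was SREBF1, a transcription factor that in mouse drives lipogenic genes. It had a median of 10.1 FPKM in the ADIPOQ-high and 14.1 FPKM in the ADIPOQ-low group and fell by 0.49 (adjusted p = 0.04), a call that leaving out any 1 of 19 libraries ends (adjusted p of up to 0.0685). SREBF1 is named after its values were seen.

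Genes that join fatty acids into triglyceride gave few calls, a share near the background of 13.5%. Of 14 tested, 2 were higher and 0 lower (1 higher with either other scaling, and 2 lower with quantile normalization or 1 with the median shift). One of them, DGAT2, which adds the last fatty acid, had the largest difference of all genes called with a symbol. It ran from 8.66 to 74.1 FPKM (median 23.3) in the ADIPOQ-high group and from 1.20 to 31.0 FPKM (median 6.04) in the ADIPOQ-low group, a difference of 1.76 (SE 0.277, adjusted p = 1.16e-05). DGAT2 lies on chromosome 9 from 10032163 to 10066082 on the plus strand. Its unrelated counterpart DGAT1, which catalyses the same step, had medians of 1.98 FPKM in the ADIPOQ-high and 2.04 FPKM in the ADIPOQ-low group (-0.03, adjusted p = 0.825). FITM2, which helps droplets bud, rose by 0.41 (adjusted p = 0.0339, lost under both other scalings), while FITM1, its relative in muscle fibres, had a difference of -0.20 (adjusted p = 0.0794).

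Lipolysis and droplet genes moved in both directions, with 3 of 11 higher and 1 lower (2 and 1 under either other scaling). LIPE, hormone-sensitive lipase, had a median of 19.0 FPKM in the ADIPOQ-high group (7.92 to 56.8) and 7.10 FPKM in the ADIPOQ-low group (3.08 to 35.1), a rise of 1.08 (SE 0.197, adjusted p = 9.91e-05). MGLL, which frees the last fatty acid, rose by 0.71 (SE 0.128, adjusted p = 8.28e-05). The first lipase of the chain, PNPLA2, had medians of 62.1 FPKM in the ADIPOQ-high and 71.3 FPKM in the ADIPOQ-low group and did not pass (-0.11, adjusted p = 0.63). HILPDA, another droplet protein named after its values were seen, rose by 0.40 (adjusted p = 0.0358, lost under both other scalings).

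G0S2, the protein inhibitor of PNPLA2, was lower. It ran from 1.29 to 47.9 FPKM (median 9.88) in the ADIPOQ-high group and from 1.16 to 126 FPKM (median 31.2) in the ADIPOQ-low group, a difference of -1.12 (SE 0.361, adjusted p = 0.0269). The lowest values of both groups were alike, and the ranges overlapped widely. G0S2 lies on chromosome 9 from 133287325 to 133287742 on the minus strand. Its call ends with groups of 18 animals (adjusted p = 0.0725), in the IMF window of 2.8 to 3.7 (0.132), with PLIN1 as the ranking gene (0.0653) and with library 39 kept (0.0543).

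**Figure D3:**
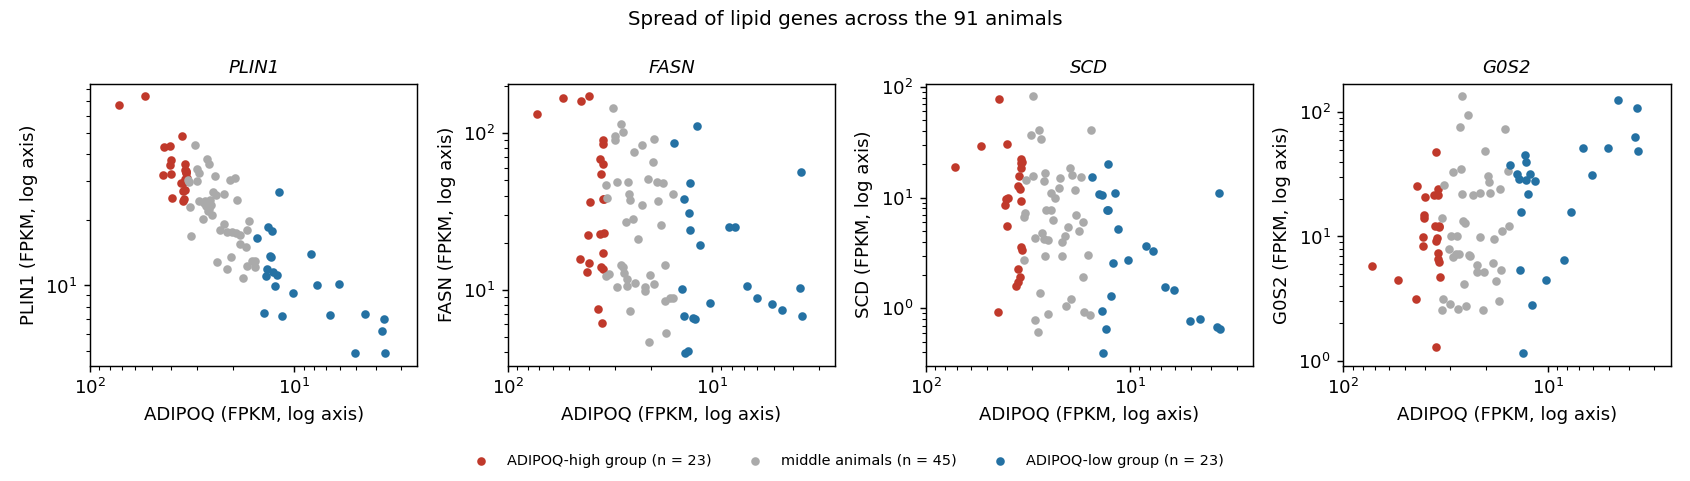
Levels of PLIN1, FASN, SCD and G0S2 (FPKM, log axes) against ADIPOQ (FPKM, log axis running high to low) in the 91 animals, each point 1 animal. PLIN1 scatters less inside the groups (SD 0.399 and 0.564 log2 units) than FASN and SCD do (SD 1.26 to 1.41). G0S2 is higher in many ADIPOQ-low animals.

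Among genes of fatty acid uptake, 3 of 12 were higher and 1 lower (1 and 1 with quantile normalization, 1 and 2 with the median shift). LPL, the lipase on capillary walls that frees fatty acids from lipoproteins, had 29.0, 41.7 and 105 FPKM as lowest, median and highest value of the ADIPOQ-high group, against 8.47, 19.6 and 39.0 FPKM in the ADIPOQ-low group. It rose by 1.06 (SE 0.141, adjusted p = 5.87e-07), and 13 of 23 ADIPOQ-high animals lay above all ADIPOQ-low ones. LMF1, which LPL needs to mature, was lower (a difference of -0.38, SE 0.118, adjusted p = 0.0211). Its call ends with PLIN1 as the ranking gene (-0.20, adjusted p = 0.252) and in the IMF window of 2.8 to 3.7 (-0.29, adjusted p = 0.324). FABP3, the carrier of muscle fibres, rose by 0.40 (adjusted p = 0.0301, lost under both other scalings and without ADIPOQ-low library 112, adjusted p = 0.0529).

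Of the factors that adipose tissue secretes, 7 of 11 tested were higher and 0 lower (5 and 0 with quantile normalization, 4 and 0 with the median shift), LPL among them. SFRP5, a secreted Wnt inhibitor, had a median of 11.8 FPKM in the ADIPOQ-high group (4.45 to 26.4) and 5.14 FPKM in the ADIPOQ-low group (2.26 to 10.7), a rise of 1.02 (SE 0.131, adjusted p = 3.58e-07). RBP4, the plasma carrier of retinol, rose by 0.94 (SE 0.158, adjusted p = 3.33e-05), although the single highest value, 11.0 FPKM, belonged to an ADIPOQ-low animal. The chemoattractant chemerin (RARRES2) rose by 0.39, C1QTNF1, a relative of adiponectin, by 0.55 and angiotensinogen (AGT) by 0.66. Enzymes of retinoid and steroid handling gave 3 of 9 higher and 0 lower under all 3 scalings. They were the retinol dehydrogenase SDR16C5 (0.76, SE 0.108, adjusted p = 2.2e-06), HSD11B1, which activates cortisol (0.61, adjusted p = 0.0111), and ALDH1A2, which makes retinoic acid (0.56, adjusted p = 0.00113).

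Of the called genes in none of the lists, the 5 with the largest rise were PPP1R1B, ADIRF, MGST1, MGP and SFRP1. SFRP1, a Wnt inhibitor like SFRP5, ran from 1.72 to 9.60 FPKM (median 4.71) in the ADIPOQ-high group and from 0.713 to 2.70 FPKM (median 1.43) in the ADIPOQ-low group. It rose by 1.13 (SE 0.110, adjusted p = 3.01e-10), and 21 of 23 ADIPOQ-high animals lay above all ADIPOQ-low ones. SFRP1 lies on chromosome 17 from 10436411 to 10489755 on the minus strand. PPP1R1B, an inhibitor of a protein phosphatase best known from brain, had medians of 5.75 FPKM in the ADIPOQ-high and 1.40 FPKM in the ADIPOQ-low group and rose by 1.40 (SE 0.144, adjusted p = 1.59e-09). The adipogenesis factor ADIRF rose by 1.24 (SE 0.171), the membrane glutathione transferase MGST1 by 1.19 (SE 0.137) and MGP, a matrix protein that restrains calcification, by 1.13 (SE 0.256, adjusted p = 0.00144).

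Genes of the connective tissue mesh were higher along with those of fat cells. Of 20 collagen and fibroblast genes 15 were higher and 0 lower (15 and 0 with quantile normalization, 12 and 0 with the median shift), and all 20 differences were positive, with a median of 0.53. COL5A2, a minor fibrillar collagen, had a median of 19.6 FPKM in the ADIPOQ-high group (12.2 to 29.4) and 9.61 FPKM in the ADIPOQ-low group (5.47 to 21.2), a rise of 0.87 (SE 0.125, adjusted p = 2.71e-06). Fibronectin (FN1) rose by 0.90 (SE 0.152, adjusted p = 3.26e-05). COL3A1, the fine-fibre collagen of soft tissue, rose by 0.80 (SE 0.169, adjusted p = 6.59e-04), a call that ends when ADIPOQ is ranked after removing its trend on IMF (0.55, adjusted p = 0.0756). The summed level of the list ran from 877 to 2470 FPKM (median 1720) in the ADIPOQ-high and from 700 to 1970 FPKM (median 976) in the ADIPOQ-low group.

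Markers of vessels, macrophages and blood also moved with the groups. Of 14 endothelial and pericyte genes 8 were higher and 0 lower (6 and 0 under either other scaling), with a sum of 106 to 201 FPKM (median 150) in the ADIPOQ-high and 68.2 to 151 FPKM (median 115) in the ADIPOQ-low group. CSPG4, the pericyte proteoglycan, rose by 0.44 (SE 0.0795, adjusted p = 7.92e-05), and CDH5, the cadherin of endothelial junctions, by 0.49 (SE 0.137, adjusted p = 0.00999). PECAM1 rose by 0.59 (adjusted p = 0.0296), a call lost under both other scalings and without ADIPOQ-low library 112 (adjusted p = 0.0504). Its difference was -0.02 among animals with the smaller first 2 title digits and 0.85 among those with the larger, whose meaning is not stated.

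Of 9 macrophage and lymphocyte genes tested 5 were higher and 0 lower (1 and 0 under either other scaling), the sum of the list running from 17.3 to 84.3 FPKM (median 39.2) in the ADIPOQ-high and 15.4 to 65.6 FPKM (median 22.5) in the ADIPOQ-low group. MRC1, a mannose receptor of tissue macrophages, rose by 0.57 (SE 0.112, adjusted p = 2.8e-04). Of 4 red blood cell genes 3 were higher (1 under either other scaling). HBB, beta globin, had a median of 88.9 FPKM in the ADIPOQ-high group (27.6 to 216) and 46.2 FPKM in the ADIPOQ-low group (17.1 to 192), a rise of 0.93 (SE 0.232, adjusted p = 0.00374). The HBB call ends with ADIPOQ ranked after IMF (0.74, adjusted p = 0.121) and with PLIN1 as the ranking gene (0.66, adjusted p = 0.114). The sum of the red blood cell list, which was not tested, ran from 28.5 to 223 FPKM (median 91.3) in the ADIPOQ-high and from 18.2 to 196 FPKM (median 48.0) in the ADIPOQ-low group.

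Smooth muscle genes gave 3 of 7 higher under all 3 scalings. The contractile genes TAGLN, MYH11 and ACTA2 rose by 0.86 (SE 0.167), 0.82 (SE 0.208) and 0.70 (SE 0.171). The summed level of this list, which also holds the fibre gene DES, had medians of 2590 FPKM in the ADIPOQ-high and 2870 FPKM in the ADIPOQ-low group. Of 3 nerve and Schwann cell genes tested the myelin gene PMP22, which fibroblasts also express, rose by 1.01 (SE 0.184, adjusted p = 9.82e-05), and the summed level had medians of 62.2 FPKM in the ADIPOQ-high and 45.6 FPKM in the ADIPOQ-low group. The PMP22 call ends with PLIN1 as the ranking gene (0.57, adjusted p = 0.0579). No gene of any cell type list was listed at 0 in all 46 animals. The part that vessels, connective tissue, macrophages or blood in the sample play in the other differences was not tested.

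**Figure D4:**
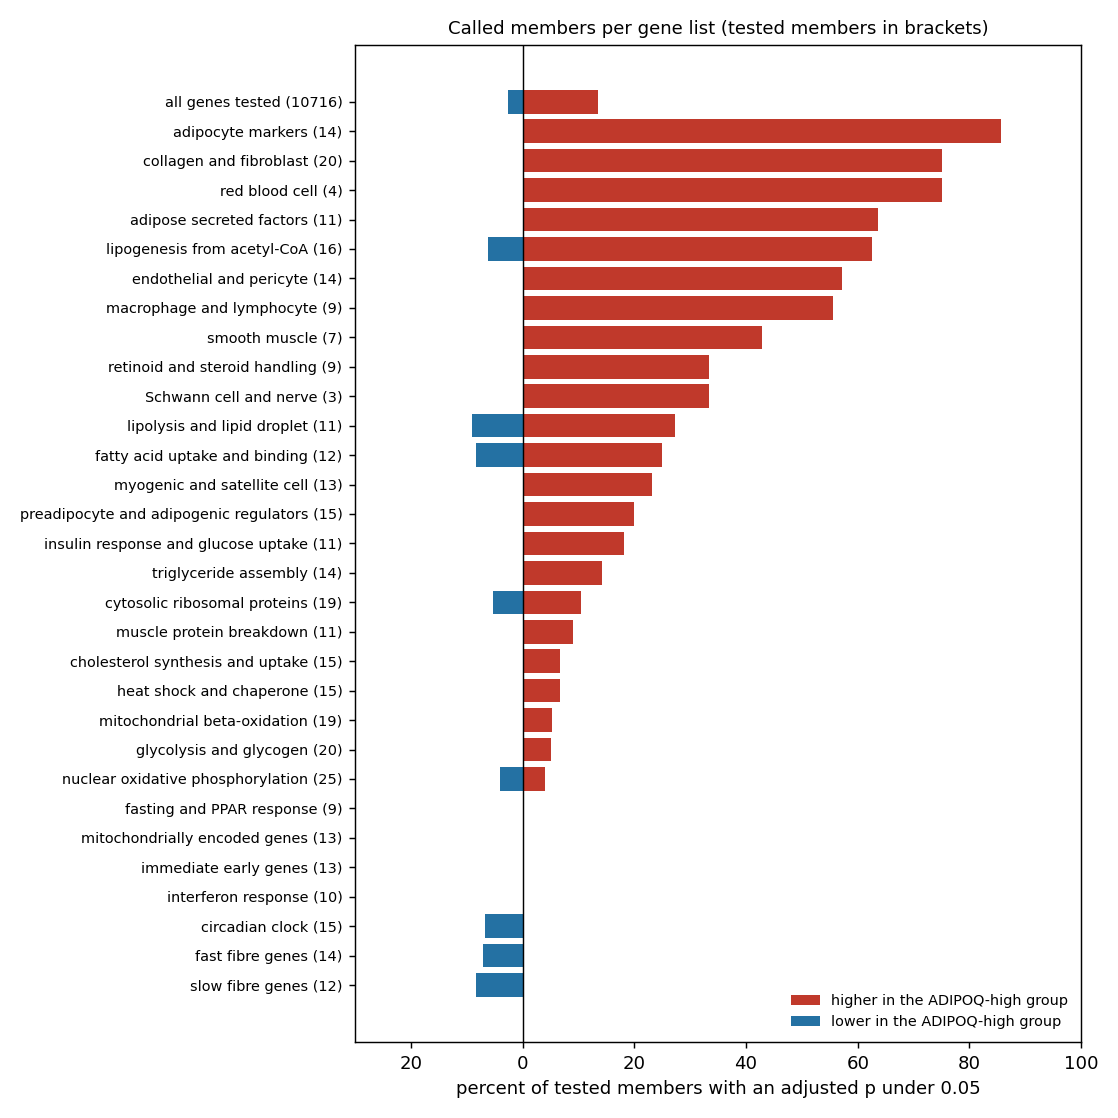
Share of the tested members of each gene list (number in brackets) that were called higher (right, red) or lower (left, blue) in the ADIPOQ-high group, in percent. The adipocyte, collagen and red blood cell lists stand at 12 of 14, 15 of 20 and 3 of 4 members higher, beside 13.5% higher and 2.55% lower among all genes tested in the top bar.

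Few genes of the muscle fibre itself were called. Of 14 fast fibre genes 0 were higher and 1 lower, of 12 slow fibre genes 0 and 1, of 20 genes of glycolysis and glycogen 1 and 0, and of 25 nuclear genes of oxidative phosphorylation 1 and 1. The other scalings called at most 1 gene per direction in each of these lists. The 4 list medians lay between -0.14 and 0.07 over the 3 scalings, and each changed sign among them. The fast troponin TNNC2 had a median of 5660 FPKM in the ADIPOQ-high group and 6870 FPKM in the ADIPOQ-low group, a difference of -0.23 (SE 0.0669, adjusted p = 0.0123). Its call ends with quantile normalization (adjusted p = 0.069), with PLIN1 as the ranking gene (-0.12, adjusted p = 0.227) and in the IMF window of 2.8 to 3.7 (-0.25, adjusted p = 0.0858). MYH7B, a myosin of slow fibres, had a difference of -0.61 (SE 0.206, adjusted p = 0.0344), which leaving out any 1 of 10 libraries ends (adjusted p of up to 0.0588). The summed fast fibre list had medians of 63300 FPKM in the ADIPOQ-high and 61300 FPKM in the ADIPOQ-low group and the slow fibre list 5410 and 5110 FPKM.

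Mitochondrial beta-oxidation gave 1 of 19 higher, SLC25A20, the carnitine carrier (0.43, adjusted p = 0.018; 0.0735 with the median shift). Of 13 mitochondrially encoded genes 0 were called, with a median difference of -0.24 (-0.09 with quantile normalization, -0.32 with the median shift). ATP8 had the smallest p among them, a difference of -0.88 (adjusted p = 0.0531), and was called lower under 4 alternatives. These were the median shift (-0.95, adjusted p = 0.0279), groups of 30 animals (-0.79, adjusted p = 0.0389), ADIPOQ ranked after IMF (-0.99, adjusted p = 0.015) and PLIN1 as the ranking gene (-1.27, adjusted p = 4.41e-04). Of 9 fasting genes 0 were called. PDK4, which restrains glucose oxidation, spanned 0.457 to 159 FPKM (median 22.4) in the ADIPOQ-high and 0.475 to 377 FPKM (median 7.33) in the ADIPOQ-low group. Its difference of 1.18 (SE 0.585, adjusted p = 0.176) did not pass, but it did with groups of 18 animals (1.81, adjusted p = 0.0267).

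Regulators of precursor cells and myogenic genes gave 3 calls each at the main scaling, a share above the background of 13.5%. As whole lists they did not rise, with median differences of 0.03 and -0.03 beside 0.04 for all genes. Their summed levels had medians of 140 and 157 FPKM in the ADIPOQ-high and 150 and 170 FPKM in the ADIPOQ-low group. Fewer members were called higher under the other scalings, where fewer of all genes were too (811 and 727, against 1451). Among 15 preadipocyte and adipogenic regulators 3 were higher (2 under either other scaling), of which PDGFRA, the receptor that marks fat cell and fibroblast precursors, rose by 0.57 (SE 0.127, adjusted p = 0.00117). EBF1 (0.53) and KLF4 (0.38) passed with an adjusted p of 0.037 and 0.0414 and lose the call without any 1 of 14 and 18 libraries (adjusted p of up to 0.0638 and 0.0729). With PLIN1 as the ranking gene all 3 calls end (adjusted p = 0.0506 for PDGFRA, 0.81 for EBF1 and 0.192 for KLF4). Among 13 myogenic genes 3 were higher and 0 lower, namely MYOG (0.39), MYF5 (0.35) and the satellite cell gene PAX7 (0.22). Only 5 of the 13 differences were positive, so most members of the list went the other way. The PAX7 call ends without any 1 of 20 libraries (adjusted p of up to 0.0695). With quantile normalization 0 of the 13 were higher and 1 lower, and with the median shift 1 and 1. In the insulin list 2 of 11 were higher under all 3 scalings, both of them coat proteins of membrane pits that fat cells and endothelium carry in number. CAV1 had medians of 72.7 FPKM in the ADIPOQ-high and 42.2 FPKM in the ADIPOQ-low group (0.73, SE 0.115, adjusted p = 1.23e-05), and CAVIN1 rose by 0.31 (SE 0.0610). The CAV1 call ends with PLIN1 as the ranking gene (0.30, adjusted p = 0.0683).

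The remaining lists gave little. Cholesterol synthesis had 1 of 15 higher, but 0 higher and 1 lower under either other scaling. Muscle protein breakdown had 1 of 11 higher under all 3 scalings (GABARAPL1, a protein of autophagy, 0.65, adjusted p = 0.00374), and so had the heat shock genes with 1 of 15 (HSPA5, a chaperone of the secretory pathway, 0.38, adjusted p = 0.00274). The HSPA5 call ends with PLIN1 as the ranking gene (0.08, adjusted p = 0.563). Ribosomal proteins had 2 of 19 higher and 1 lower (3 and 1 with quantile normalization, 1 and 2 with the median shift), and RPL3 rose by 0.48 (SE 0.0849, adjusted p = 7.44e-05). Circadian clock genes had 0 of 15 higher and 1 lower under all 3 scalings. Immediate early genes had 0 of 13 called and interferon genes 0 of 10. MYC (0.32, adjusted p = 0.166) had the smallest p of the immediate early genes.

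Of the 15 genes with the largest fall, G0S2 and DBP were in a list and the other 13 in none. SIX2, a homeobox transcription factor, ran from 3.92 to 21.0 FPKM (median 9.88) in the ADIPOQ-high group and from 7.25 to 47.4 FPKM (median 20.1) in the ADIPOQ-low group, a difference of -0.97 (SE 0.202, adjusted p = 5.54e-04). In the ADIPOQ-high group 7 of 23 animals lay below every ADIPOQ-low animal. SIX2 lies on chromosome 3 from 95459569 to 95463153 on the plus strand. CHCHD10, a protein between the mitochondrial membranes, had a median of 113 FPKM in the ADIPOQ-high group (58.3 to 416) and 240 FPKM in the ADIPOQ-low group (80.5 to 604), a difference of -0.82 (SE 0.222, adjusted p = 0.00758). Its call ends in the IMF window of 2.8 to 3.7 (-0.68, adjusted p = 0.193). UBALD2 had the next smallest adjusted p of the 15 after SIX2 (-0.68, SE 0.143, adjusted p = 6.93e-04), a call that ends with PLIN1 as the ranking gene (-0.38, adjusted p = 0.0707).

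Other calls of a fall turned on single libraries. TMEM238 had the largest fall of the genes with a symbol, a difference of -1.50 (SE 0.533, adjusted p = 0.0453), on levels from 0.399 to 43.6 FPKM in the ADIPOQ-high and from 0.915 to 82.4 FPKM in the ADIPOQ-low group, and leaving out any 1 of 29 libraries ends the call (adjusted p of up to 0.0726). DBP, an output gene of the circadian clock, differed by -1.11 (adjusted p = 0.0464) and loses its call without any 1 of 26 libraries (adjusted p of up to 0.0795). The cytokine CTF1 (-0.96), TMEM160 (-0.80), the ubiquitin ligase PDZRN3 (-0.67) and the scaffold protein GRIP2 (-0.64) also lose the call without 1 library or another (adjusted p of up to 0.0651). The exon junction protein CASC3 (-0.81), the peroxisomal reductase DECR2 (-0.74), the protease inhibitor CST6 (-0.71) and FAM184B (-0.65) kept the call whichever library was left out. Of these, DECR2 (adjusted p = 0.181) and CST6 (adjusted p = 0.0699) lose it in the IMF window of 2.8 to 3.7, and CST6 also with PLIN1 as the ranking gene (adjusted p = 0.0649). All of their ranges overlapped between the groups. CASC3 was low, with medians of 0.218 FPKM in the ADIPOQ-high and 0.482 FPKM in the ADIPOQ-low group, where it reached 5.94 FPKM. The CASC3 difference was -1.65 among animals with the smaller first 2 title digits and -0.45 among those with the larger.

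Whether these genes also follow ADIPOQ in animals that the ranking did not use was examined in the 51 unmarked animals with an IMF below 2.5 or above 4.0. Their ADIPOQ ran from 6.77 to 75.3 FPKM (median 22.1), and each gene was fitted with a slope on log2(ADIPOQ + 1) with IMF as a covariate. There 341 genes rose and 7 fell with ADIPOQ (3.18% and 0.0653% of 10716, limma adjusted p under 0.05). Of the 1451 genes higher in the ADIPOQ-high group, 95.0% had a positive slope, beside 52.7% of all genes. Of them 298 were called rising, which is 20.5% of the 1451 and 87.4% of the 341, and 0 were called falling. Of the 273 lower genes 84.6% had a negative slope, beside 47.3% of all genes. Only NFIX, a transcription factor, and KLC2, a light chain of kinesin, were called falling there, and both are named after their values were seen.

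The fat cell genes rose with ADIPOQ again in these 51 animals. PLIN1 rose by 0.79 log2 units per log2 unit of ADIPOQ (SE 0.0566, adjusted p = 2.73e-15), TUSC5 by 0.85 (adjusted p = 1.87e-12), FABP4 by 0.74 (adjusted p = 1.45e-12) and CIDEC by 0.96 (adjusted p = 6.45e-11). In all 11 of the 14 adipocyte markers rose there, CFD among them (0.36, adjusted p = 0.0429), while CEBPA (0.16, adjusted p = 0.607) did not pass. DGAT2 rose by 1.02 (adjusted p = 1.82e-04), SCD by 1.05 (adjusted p = 0.0123) and FASN by 0.85 (adjusted p = 0.0425). Of the lipogenic list 9 of 16 rose, of the secreted factors 5 of 11 and of the collagen list 8 of 20.

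In the 51 animals, 2 of 14 endothelial and pericyte, 1 of 9 macrophage, 1 of 4 red blood cell and 0 of 7 smooth muscle genes rose. PMP22 (0.33, adjusted p = 0.307), TAGLN (0.32, adjusted p = 0.159) and HBB (0.52, adjusted p = 0.135) had positive slopes that did not pass. G0S2 had a slope of -0.30 (adjusted p = 0.573), SIX2 one of -0.26 (adjusted p = 0.251) and SREBF1 one of -0.04 (adjusted p = 0.9). The difference between the groups and these animals was not tested for any gene.

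**Figure D5:**
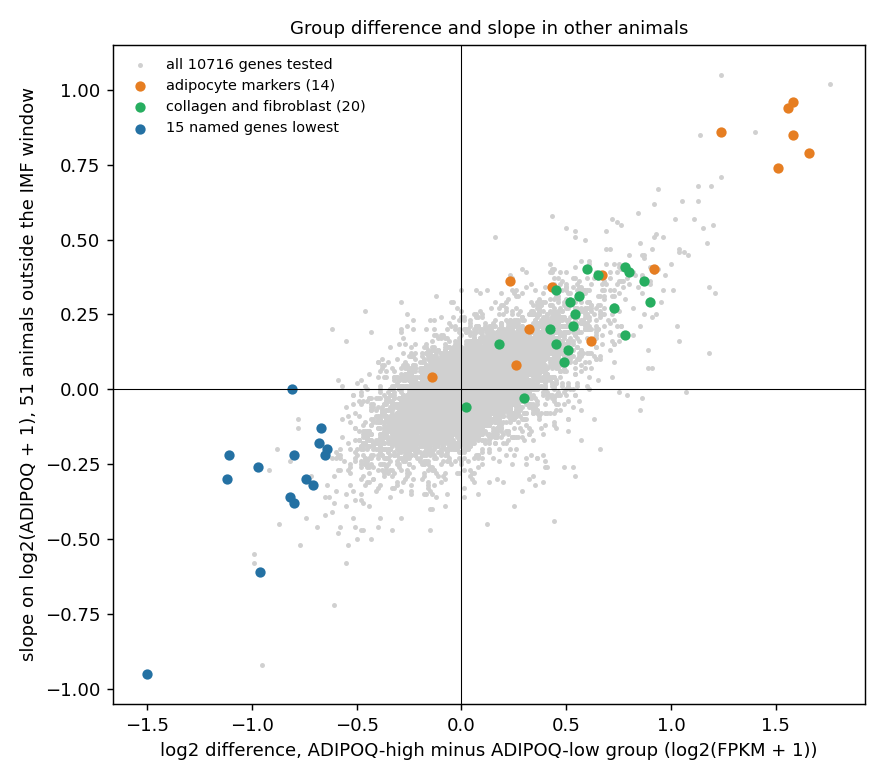
Log2 difference between the ADIPOQ-high and ADIPOQ-low groups (horizontal, log2(FPKM + 1)) against the slope on log2(ADIPOQ + 1) in the 51 animals outside the IMF window (vertical), each point 1 of 10716 genes. Adipocyte markers (orange) reach slopes near 1 at the upper right, collagen and fibroblast genes (green) lie mostly above 0 on both axes, and the 15 named genes with the largest fall (blue) lie at or below 0 on the vertical axis.

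In the 25 animals without a recorded IMF, whose ADIPOQ ran from 5.09 to 60.7 FPKM, 96 genes rose and 1 fell with ADIPOQ (0.896% and 0.00933%). There 96.5% of the 1451 higher genes had a positive slope, beside 66.6% of all genes, and 84 of them were called. PLIN1 rose by 0.83 (adjusted p = 5.28e-06) and SFRP1 by 0.82 (adjusted p = 5.28e-06), while FASN (0.35, adjusted p = 0.664) and SCD (0.51, adjusted p = 0.452) did not pass. In the 21 animals marked re-analyzed 1554 genes rose and 12 fell (14.5% and 0.112%), and 86.5% of all genes had a positive slope. Of the 273 lower genes 40.7% had a negative slope in them, beside 13.5% of all genes, with 1 called falling and 5 called rising.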

How the data were processed

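Polyadenylated RNA of longissimus dorsi muscle was sequenced in 189 pigs. HISAT2 2.0.5, StringTie 1.3.3 and the build Sscrofa11.1 are named in the submitters' processing notes. The authors deposited values for 18114 transcripts of 12651 genes under no named unit, taken as FPKM from StringTie's column layout. There are no counts among them, so depth is unknown and errors are the spread between animals.

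Transcripts of a gene were summed. Genes averaging 0.5 FPKM or more in the 189 samples were tested, ADIPOQ left out (10716 genes). limma 3.58.1 in R 4.3.3 (lmFit, eBayes with a trend) was applied to log2(FPKM + 1), 2-sided, with Benjamini-Hochberg adjustment over all genes tested and a threshold of 0.05. This scale understates the change of low genes. The scripts were tested on simulated data. IMF was compared by permutation. Other scalings, filters, cuts and covariates, and leaving out each library, were tried.

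The members and gene lists were chosen with earlier results of these data known. Named genes were the tested adipocyte markers, the 15 called genes with a symbol and the largest rise and fall, up to 3 called members of every other list with the largest difference (or the member with the smallest p), and the 5 largest rises in no list. Further members of a list are given beside them, chosen after their values were seen. No label says which animals are related, and p-values treat animals as independent. Some genes that this rule names are not reported here, and promoter sequences were not analysed here.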

Additional observations from a re-analysis of the deposited data

How the results depend on the processing

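Counts of higher and lower genes (1451 and 273) moved by more than 1.5 times under 5 alternatives, and the count of lower genes also without ADIPOQ-low library 60 or 179 (177 each). They were 567 and 214 with the filter raised to 5 FPKM, where fewer genes are tested, 811 and 534 with quantile normalization, and 727 and 649 with the median shift. With an IMF from 2.8 to 3.7, which leaves 14 animals per group, they were 606 and 13, and with PLIN1 as the ranking gene 1840 and 1996; the cause was not tested for these and for the 2 scalings. A pseudocount of 0.1, no filter, IMF or the first 2 title digits as a covariate, the first 9 title digits as a random block, groups of 30, 18 or 22 animals each, ADIPOQ ranked after IMF and library 39 kept gave 1228 to 1867 higher and 200 to 313 lower genes. Leaving out 1 library gave 1254 to 1653 higher and 177 to 367 lower genes. Of the 1724 genes called, 1053 kept the call with quantile normalization, 999 with the median shift and 604 in the narrower window, and 0 were called in the opposite direction under these alternatives. With PLIN1 as the ranking gene 41 of them changed sign, and 20 of the calls on genes named here ended.

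The IMF difference of 0.226 passed with groups of 30 animals (0.217, permutation p = 0.0353) and with PLIN1 as the ranking gene (0.379, p = 0.00262), and was 0.055 (p = 0.63) in the narrower window, 0.201 (p = 0.179) with groups of 18 and 0.234 (p = 0.0653) with library 39 kept. Counts of genes rising and falling outside the window (341 and 7) were 183 and 23 with quantile normalization, 96 and 1 in the animals without IMF and 1554 and 12 in the re-analyzed animals. No named gene that was called changed sign under the alternatives above, but 20 of the named calls end when 1 library or another is left out (among them FASN, TMEM238, DBP, CTF1, TMEM160, PDZRN3, GRIP2, FITM2, FABP3, EBF1, KLF4, MYH7B, CS, PECAM1, PAX7, RPS4X, RPS14, SREBF1 and HILPDA). No label says that the title code pairs animals, but 4 values of it hold 1 animal of each group. Within these pairs the deviations from the group means had an r of -0.20 to -0.01 over genes. A fit with the code as a fixed replicate block, chosen after seeing the data and resting on these 4 pairs alone, called 0 genes higher and 0 lower with limma (574 at an unadjusted p under 0.05), and 1631 of the 1724 genes and 89 of the 91 named calls had the same sign in it. Without read counts the depth behind low levels, such as those of LEP or ADIG, is unknown.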

Other observations

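Further genes are named here after their values were seen, and of these MAL2 separated the groups as well as TUSC5 did. For RETSAT, ANXA2, S100A10 and PC, 12, 13, 14 and 3 of 23 ADIPOQ-high animals lay above every ADIPOQ-low animal. MAL2, a protein of membrane traffic, had a median of 1.10 FPKM in the ADIPOQ-high group (0.480 to 1.96) and 0.316 FPKM in the ADIPOQ-low group (0.0905 to 0.672), a difference of 0.67 (SE 0.0608, limma adjusted p = 5.94e-11). In the ADIPOQ-high group 22 of 23 animals lay above every ADIPOQ-low animal, as for TUSC5. RETSAT, the retinol saturase, ran from 14.7 to 28.0 FPKM (median 16.6) in the ADIPOQ-high group and from 5.06 to 16.5 FPKM (median 9.01) in the ADIPOQ-low group, a difference of 0.92 (SE 0.103, adjusted p = 1.2e-08). ANXA2 and S100A10, partners in 1 membrane-binding complex, were higher together, by 1.04 (SE 0.135, adjusted p = 4.08e-07) and 0.92 (SE 0.126, adjusted p = 1.26e-06). PC, the pyruvate carboxylase that feeds citrate export in fat cells, had medians of 41.7 FPKM in the ADIPOQ-high and 24.2 FPKM in the ADIPOQ-low group, a difference of 0.76 (SE 0.110, adjusted p = 3.12e-06). LPIN1, a phosphatase of triglyceride assembly, had medians of 33.2 FPKM in the ADIPOQ-high and 17.7 FPKM in the ADIPOQ-low group and missed the threshold (0.56, SE 0.206, adjusted p = 0.0537), passing it with groups of 30 animals (0.0269) and of 18 animals (0.0303). The complement genes C1QA and C1QB had differences of 0.50 each and adjusted p of 0.0551 and 0.0564.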
